A study of Mus musculus with 18 samples.

Results

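Totals of RNA fragment counts per gene were compared between Snord67KO-2, a clone of 4T1 mouse mammary carcinoma cells labelled as a knockout of the small nucleolar RNA Snord67, and the 4T1 WT cells it came from. Positions marked as mispriming and the ribosomal precursor gene Rn45s were left out, the remaining counts were summed by chromosome and gene name, and a gene was kept when it had at least 50 counts over the 6 libraries compared. Of 19696 combinations of chromosome and gene name, 4508 genes were kept. The threshold left 72 genes that had just 50 counts inside and 94 genes with 49 counts outside.

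The series holds 18 samples, of which 9 are oxidized libraries with counts. The 6 libraries used here are 3 biologic replicates of WT and 3 of Snord67KO-2, and the 3 libraries of a separate clone, Snord67KO-1, are given beside them. All of these cells carry lentiviral mCherry and Renilla luciferase, were kept in puromycin, and gave poly(A)-enriched RNA that was fragmented and oxidized. Each knockout was made with paired CRISPR guides and grown from 1 cell, so Snord67KO-2 is 1 clone. An effect of losing Snord67 and a trait of the clone cannot be told apart in this comparison.

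Snord67 is a box C/D snoRNA, a short nuclear RNA that guides 2′-O-methylation of another RNA by base pairing, and it lies in an intron of Ckap5. In ribose oxidation sequencing, oxidation and elimination remove fragments with a free ribose at their 3′ end, so that fragments ending at a 2′-O-methylated nucleotide are enriched. The sum of the counts over a gene is the measure used here. A gene total can move with the amount of RNA or with the share of its ends that withstand oxidation, and these cannot be told apart in the oxidized libraries alone. The control libraries without oxidation were not analysed here. In bulk RNA, fewer cells with a transcript and less of it per cell cannot be told apart either.

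The targeted RNA and the guides the study designed against it are shown first. Snord67 (ENSMUSG00000077221.1) lies on chromosome 2 from 91596070 to 91596180 on the plus strand of GRCm38, is 111 nucleotides long, and has 58 bases inside the guide targets, which are in capitals. In the guides, the capitals are the PAM, the bases beside the target that Cas9 needs. Guides 2, 3 and 4 match the plus strand and guide 1 the minus strand. The guide pair used for Snord67KO-2 is not given in the sources used here.
Snord67: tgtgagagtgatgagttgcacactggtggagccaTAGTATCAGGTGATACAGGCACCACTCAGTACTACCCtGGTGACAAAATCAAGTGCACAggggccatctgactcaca
sgRNA 1: gcctgtatcacctgatactaTGG
sgRNA 2: ggtgacaaaatcaagtgcacAGG
sgRNA 3: ggcaccactcagtactacccTGG
sgRNA 4: gtgacaaaatcaagtgcacaGGG

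Under the name Snord67 there were 0 counts in all 6 libraries, WT included, so its loss could not be seen in these libraries of poly(A)-enriched RNA. Its positions lie in an intron of Ckap5 and were not looked up apart from the name. Counts there that were filed under Ckap5 or marked mispriming are therefore not covered. The parts of that enrichment and of depth in this were not tested. Where a count of 0 is a measured one, it allows up to 3 counts, which is 5.57 to 21.3 counts per 1000000 kept counts (CPM) in these libraries, with counting error only. The host gene Ckap5, a microtubule polymerase, had 54.1, 116 and 65.5 CPM in WT and 70.6, 64.4 and 62.2 CPM in Snord67KO-2. WT replicate 2 was the highest library, and the Snord67KO-2 values lay within the WT range (edgeR, log2 fold change -0.27, SE 0.32, adjusted p = 0.700; two-sided exact permutation test of the means, p = 0.8, where the smallest p for 3 against 3 is 0.1).

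Total counts ranged from 625093 to 737219 in WT and from 212463 to 423278 in Snord67KO-2. WT replicate 2 stood apart, with 17.8% of its counts at positions marked mispriming against 1.38% to 5.08% in the other 5 libraries. Its chi-square against the other WT libraries was 7.03 and 9.34 per degree of freedom over genes, against 2.50 between those 2 and 1.11 to 1.75 among the Snord67KO-2 libraries. That measure grows with depth, which was lower in Snord67KO-2. Correlations of log2 CPM between replicates ran from 0.864 to 0.934 in WT and from 0.868 to 0.913 in Snord67KO-2. Between 54.2% and 63.8% of the kept counts lay in genes that had at least 20% of their counts at 1 position, and those positions were left in the totals. Of all counts in the tested genes with an annotation, 36.95% lay in exons, while the median share per gene was 89.7%. Totals and scaling thus rest in large part on counts outside annotated exons. All 6 markers of carcinoma epithelium (Epcam, Cdh1, Krt7, Krt8, Krt18, Krt19) had counts, with a summed level of 482 to 857 CPM in WT and 978 to 1150 CPM in Snord67KO-2. Of the 11 myeloid, 10 lymphocyte, 10 fibroblast and 8 endothelial markers, none reached 50 counts. Their summed levels were 9.28 to 13.6, 0 to 4.98, 4.98 to 15.8 and 22.6 to 37.4 CPM in WT and 0 to 30.3, 0 to 7.92, 0 to 7.92 and 28.4 to 51.5 CPM in Snord67KO-2. Among the defining markers at 0 were Lyz2, Cd3d, Col1a1, Dcn and Kdr. Some counts were found for 9 myeloid, 3 lymphocyte, 5 fibroblast and 5 endothelial markers. The most in 1 marker over the 6 libraries were 6 for Adgre1, 2 for Cd4, 9 for Pdgfra and 43 for Flt1, in that order of lists.

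Among the genes that rose in Snord67KO-2, Spp1, Lcn2, Cp, Mmp3 and Cxcl1 had the smallest p. They also included 5 of 13 tested enzymes and inhibitors of matrix remodelling, 5 of 11 S100 proteins and annexins and 4 of 13 glycolysis genes. In these lists the numbers were 3, 2 and 3 with DESeq2 and 3, 2 and 2 with library totals alone. Most of these called members were also called higher in Snord67KO-1 in a fit of all 9 oxidized libraries. They were Mmp3, Serpine2, P4ha1, S100a6, S100a10, S100a11, Anxa2, Ldha, Aldoa, Pkm and Pgk1, while Mmp9, Plau and Anxa1 were not called there. The called matrix members all had under 50 counts in WT and were kept only through their counts in the clone. With edgeR (quasi-likelihood, p-values adjusted after Benjamini and Hochberg), 121 genes (2.68% of those tested) were called higher and 36 (0.799%) lower at an adjusted p under 0.05. The median log2 fold change of all genes was -0.03, and 98 of the higher and 30 of the lower genes changed by more than 1 on the log2 scale. The CPM of all 121 higher genes and of 34 of the 36 lower genes did not overlap between the groups, as was true of 24.4% of all genes in either direction. The share of calls that were higher was 77.1%, and was 65.1% with upper quartile factors and 94.0% with library totals alone. It was 56.8% without WT replicate 3, and 40.4% without a count filter, where more genes were called lower than higher.

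**Figure D1:**
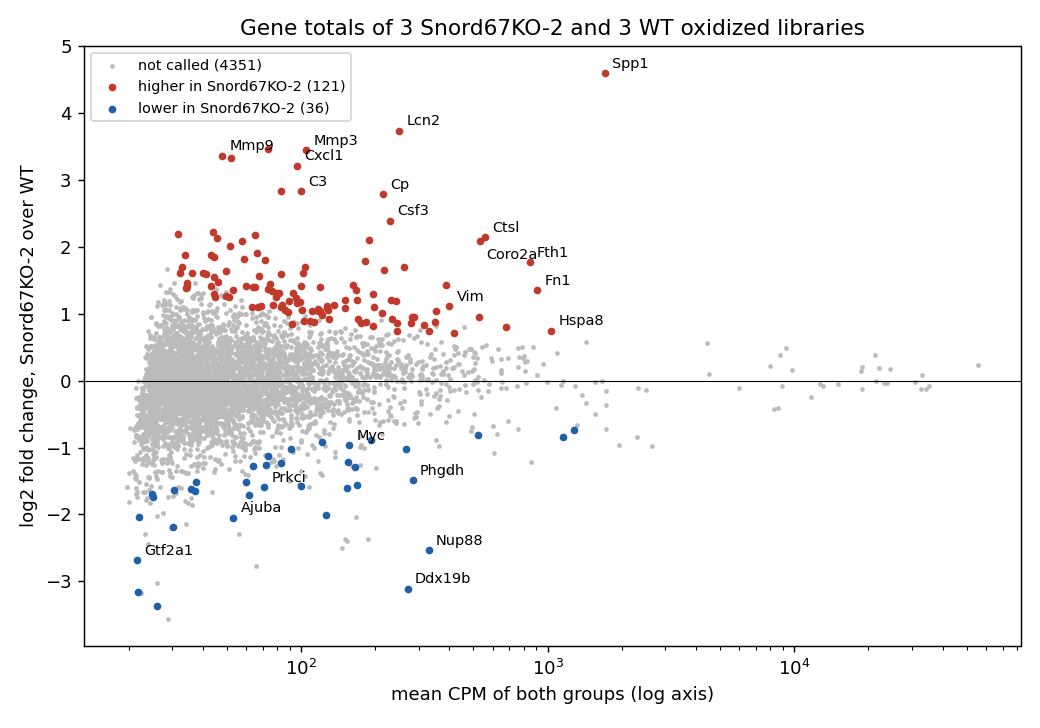
Each point is a gene, with its mean CPM over the 6 libraries on a log axis and its log2 fold change in Snord67KO-2 over WT. The 121 genes called higher (red) reach 4.60 for Spp1, and the 36 called lower (blue) include Ddx19b and Nup88, whose counts lie mostly at 1 position.

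Spp1, which encodes osteopontin, a secreted phosphoprotein that binds integrins and CD44, had the smallest p (ENSMUSG00000029304.14, chromosome 5, 104435118 to 104441050, plus strand). It had 123, 136 and 149 CPM in the WT libraries and 3516, 3283 and 3067 CPM in Snord67KO-2. Every Snord67KO-2 library was far above every WT library, with means of 136 ± 12.8 and 3289 ± 225 CPM (SD, n = 3), a ratio of 24.2 (log2 fold change 4.60, SE 0.20, adjusted p = 2.95e-09). Its counts were spread along the gene, with 1.02% at the highest position and 98.6% in exons.

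Lcn2 encodes lipocalin 2, a secreted protein that takes up bacterial iron carriers and rises in inflammation (ENSMUSG00000026822.14, chromosome 2, 32384633 to 32388252, minus strand). The WT libraries had 33.5, 36.6 and 32.8 CPM and the Snord67KO-2 libraries 549, 443 and 407 CPM. Every library of the clone lay far above every WT library (log2 fold change 3.74, SE 0.22, adjusted p = 1.01e-07). Cp, ceruloplasmin, the copper-carrying ferroxidase of plasma, had 52.2, 58.1 and 50.4 CPM in WT and 408, 402 and 317 CPM in Snord67KO-2 (log2 fold change 2.79, SE 0.21, adjusted p = 2.01e-06). C3, the central complement component, had 29.8, 19.4 and 22.7 CPM in WT and 188, 169 and 171 CPM in the clone (log2 fold change 2.83, SE 0.25, adjusted p = 8.26e-06). For both, all 3 libraries of the clone lay above all 3 of WT.

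Iron storage genes moved with them. Fth1, the ferritin heavy chain, had 408, 359 and 386 CPM in WT and 1272, 1259 and 1402 CPM in Snord67KO-2 (log2 fold change 1.77, SE 0.16, adjusted p = 1.36e-05). The light chain gene Ftl1 had 347, 241 and 358 and 542, 491 and 522 CPM (log2 fold change 0.71, SE 0.19, adjusted p = 0.0499), a smaller step close to the threshold that was called in 2 of the 6 fits that left out 1 library. Both ferritins have processed copies in the genome, and how reads with several matches were counted is not given in the sources used here.

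Among the proteases, Mmp3 (stromelysin-1, ENSMUSG00000043613.8, chromosome 9, 7445822 to 7455975, plus strand) had 16.8, 15.1 and 20.2 CPM in WT and 204, 217 and 158 CPM in Snord67KO-2 (log2 fold change 3.45, SE 0.27, adjusted p = 2.42e-06). Mmp9, gelatinase B, had 13, 2.15 and 7.56 CPM in WT and 109.9, 96.6 and 59 CPM in the clone (log2 fold change 3.37, SE 0.46, adjusted p = 6.78e-04). Both were low in every WT library and high in every library of the clone. Ctsl, the lysosomal protease cathepsin L, had 240.4, 136 and 237 and 863, 1009.8 and 845 CPM (log2 fold change 2.15, SE 0.22, adjusted p = 2.90e-05). Serpine2, an inhibitor of thrombin and urokinase, had 7.46, 10.8 and 10.1 and 86.3, 92.5 and 106 CPM (log2 fold change 3.32, SE 0.34, adjusted p = 3.10e-05). The 3 libraries of each group were close together for Serpine2, and its means differed by a ratio of 10.1.

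Of the secreted signals, Cxcl1, a chemokine that draws neutrophils (ENSMUSG00000029380.11, chromosome 5, 90891241 to 90893115, plus strand), had 16.8, 15.1 and 25.2 CPM in WT and 149, 193 and 180.2 CPM in Snord67KO-2 (log2 fold change 3.22, SE 0.27, adjusted p = 5.37e-06). Csf3, the granulocyte colony-stimulating factor, had 65.2, 131 and 22.7 and 322, 382 and 454 CPM (log2 fold change 2.39, SE 0.38, adjusted p = 0.00257). The WT libraries of Csf3 were uneven, 53.2% of its counts lay at 1 position, and the call was lost without Snord67KO-2 replicate 3. Il1a, the cytokine interleukin-1 alpha, had 18.6, 28 and 10.1 and 62.8, 76.4 and 43.5 CPM (log2 fold change 1.61, SE 0.40, adjusted p = 0.0393) and was called in 1 of the 6 fits that left out a library. Ptgs2 (cyclooxygenase-2, which makes prostaglandins) and Nt5e (CD73, which makes adenosine outside the cell) were chosen after their values were seen. They had 89.5, 116 and 108 CPM in WT against 345, 338 and 308 CPM in the clone (log2 fold change 1.65, SE 0.19, adjusted p = 1.34e-04), and 96.9, 138 and 134 against 400.3, 430.5 and 369.8 CPM (log2 fold change 1.71, SE 0.20, adjusted p = 1.26e-04). Both kept the call without any 1 library.

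Other genes with the smallest p were Cd9, a tetraspanin of the cell surface, with 59.6, 66.7 and 88.2 CPM in WT and 306, 318 and 298 CPM in the clone (log2 fold change 2.11, SE 0.21, adjusted p = 2.72e-05), and Oaf, with 18.6, 28 and 12.6 and 149, 149 and 139.8 CPM (log2 fold change 2.84, SE 0.29, adjusted p = 3.08e-05). Coro2a, an actin-binding coronin, had 216, 168 and 222 and 887, 865 and 820.4 CPM (log2 fold change 2.08, SE 0.18, adjusted p = 5.37e-06), but only 8.35% of its counts lay in its annotated exons. The noncoding 4930455D15Rik had 7.46, 10.8 and 17.6 and 165, 137 and 106 CPM (log2 fold change 3.47, SE 0.35, adjusted p = 2.72e-05), with 0% of its counts in exons. The positions carry no strand, so for these 2 genes counts of another transcript at the same place cannot be told apart. Among the larger changes were Ier3, an early response gene, at 2.17 (SE 0.30, adjusted p = 6.78e-04), the metallothionein Mt2 at 2.23 (SE 0.38, adjusted p = 0.00377), and Plet1, a surface protein of epithelia, at 2.20 (SE 0.38, adjusted p = 0.00461) on the log2 scale.

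**Figure D2:**
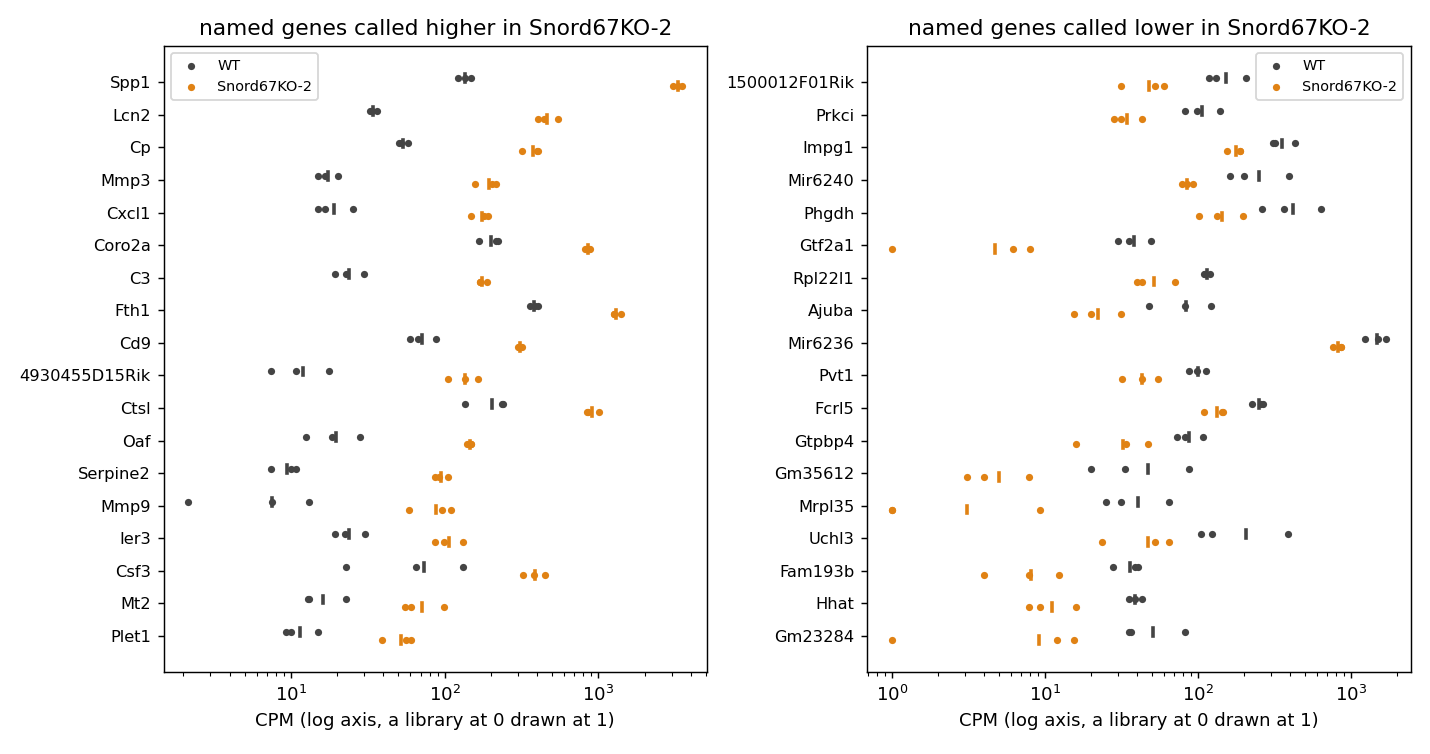
CPM of each library on a log axis for the genes named by smallest p or largest fold change, with WT in grey, Snord67KO-2 in orange and a bar at each mean. The 3 libraries of a group lie close together for Spp1, Lcn2 and Fth1, and spread wider for Csf3 and for most genes called lower.

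The sequences before the transcription start are shown for Lcn2, Mmp3 and Cxcl1, which were chosen after their values were seen. They are among the 5 genes with the smallest p, all of which were called higher, and the sequences of Spp1 and Cp are left out. The stretches shown are the 250 bases upstream of the start in RefSeq (GRCm38.p6). That of Lcn2 is at chr2:32387740-32387989 on the minus strand. That of Mmp3 is at chr9:7445572-7445821 and that of Cxcl1 at chr5:90890995-90891244, both on the plus strand. The Lcn2 stretch lies wholly inside the gene span given above, which comes from another annotation that places the start further upstream. Capitals mark matches on either strand to 4 letter patterns: GGGANNNNCC, a form of the NF-kB motif, TGANTCA of AP-1, TTNNGNAA of C/EBP, and TATAAA of the TATA box.
Lcn2: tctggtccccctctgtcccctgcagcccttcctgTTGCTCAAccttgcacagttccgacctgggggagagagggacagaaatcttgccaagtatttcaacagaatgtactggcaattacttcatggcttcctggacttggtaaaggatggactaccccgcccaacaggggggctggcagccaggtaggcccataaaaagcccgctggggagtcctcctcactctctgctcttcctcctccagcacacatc
Mmp3: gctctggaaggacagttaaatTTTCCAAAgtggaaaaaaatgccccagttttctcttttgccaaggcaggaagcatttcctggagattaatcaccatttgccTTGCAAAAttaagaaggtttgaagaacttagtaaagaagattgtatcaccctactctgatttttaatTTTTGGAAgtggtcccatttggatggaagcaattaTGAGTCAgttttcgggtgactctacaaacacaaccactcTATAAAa
Cxcl1: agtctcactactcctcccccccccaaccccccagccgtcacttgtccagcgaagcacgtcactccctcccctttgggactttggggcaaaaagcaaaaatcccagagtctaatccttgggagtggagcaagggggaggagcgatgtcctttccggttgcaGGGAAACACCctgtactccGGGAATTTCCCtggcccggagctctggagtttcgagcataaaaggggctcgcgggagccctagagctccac

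The Cxcl1 sequence holds the NF-kB letters at -90 and in an overlapping pair at -71 and -70, counted from the start. The Mmp3 sequence holds the AP-1 letters at -46, TATAAA at -7 and the C/EBP letters at -229, -148 and -81, and that of Lcn2 holds the C/EBP letters at -216. Of the sequences left out, that of Spp1 held TATAAA at -211 and no match to the NF-kB, AP-1 or C/EBP letters. That of Cp held the AP-1 letters at -177 and the C/EBP letters at -206. Over all 32851 RefSeq promoters, 17.6% held the NF-kB letters, 6.75% the AP-1 letters, 36.8% the C/EBP letters and 12.4% TATAAA. Of the genes called higher, 97 had a promoter in the table, and 25 of them held the NF-kB letters, 14 AP-1, 45 C/EBP and 18 TATAAA in at least 1 of their promoters. Among 3495 tested genes with a promoter, the shares were 26.6%, 5.24%, 31.6% and 7.75%, against 25.8%, 14.4%, 46.4% and 18.6% of the genes called higher. These are matches of letters, given as a description, and no test was made.

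Gene lists were described by how many of their tested members were called, beside 2.68% higher and 0.799% lower over all genes. Called members with under 50 counts in WT, such as Mmp3, Mmp9, Serpine2, Cxcl1 and Mt2, were tested only because of their counts in the clone. Ajuba and Plk2, called lower, were tested only because of their counts in WT. The shares and medians of such lists therefore depend on the filter. Extracellular matrix proteins and cytokines are also themes the study names for the RNA of these clones, so their counts are not independent evidence. Of the 13 extracellular matrix proteins tested, out of 31, 3 rose and none fell, with a median log2 fold change of 0.48. Beside Spp1 they included Fn1 (fibronectin), with 516, 545 and 466 CPM in WT and 1342, 1247 and 1321 CPM in Snord67KO-2 (log2 fold change 1.35, SE 0.16, adjusted p = 1.76e-04). The Fn1 groups were well apart.

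Of 13 matrix remodelling enzymes and inhibitors tested, out of 28, 5 rose and none fell, with a median of 0.74. Mmp3, Mmp9 and Serpine2 are given above. Plau (urokinase) had 14.9, 21.5 and 27.7 CPM in WT and 94.2, 64.4 and 43.5 CPM in the clone (log2 fold change 1.55, SE 0.38, adjusted p = 0.0393), and P4ha1, a subunit of the enzyme that hydroxylates collagen prolines, had 13, 17.2 and 17.6 and 47.1, 52.3 and 46.6 CPM (log2 fold change 1.61, SE 0.36, adjusted p = 0.0234). Plau and P4ha1 were each called in 2 of the 6 fits that left out 1 library, and not with DESeq2. P4ha1 was also the 1 gene called among 9 hypoxia-responsive genes tested, whose median was 0.62. Of 15 integrins and matrix receptors tested, Itga3 rose (log2 fold change 0.74, SE 0.18, adjusted p = 0.0335) and the median was -0.15. Itgb1 had a log2 fold change of 0.31 (adjusted p = 0.391) and Cd44 of 0.19 (adjusted p = 0.782), and 7 of the 15 lay above 0.

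Of 13 cytokines, chemokines and receptors tested, out of 35, Cxcl1, Csf3 and Il1a rose and none fell, and the median was 0.40. The colony-stimulating factor gene Csf1 (-0.26, adjusted p = 0.658) and Vegfa (-0.23, adjusted p = 0.819) were not called. Of 6 interferon-stimulated and antigen presentation genes tested, B2m, the light chain of class I molecules, rose (log2 fold change 0.88, SE 0.21, adjusted p = 0.0365) and was called in 2 of the 6 fits without 1 library. Their median was 0.03, and -0.02 with upper quartile factors.

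The list of S100 proteins and annexins had 5 of 11 tested higher, none lower and a median of 0.83. S100a6, a calcium-binding protein of growing cells, had 218, 168 and 244 CPM in WT and 549, 624 and 531 CPM in Snord67KO-2 (log2 fold change 1.44, SE 0.19, adjusted p = 4.17e-04). Anxa2, which binds membrane lipids, and its partner S100a10 were both higher: Anxa2 had 162, 121 and 159 and 338, 350.0 and 323 CPM (log2 fold change 1.19, SE 0.19, adjusted p = 0.00262), and S100a10 had 82, 83.9 and 63 and 126, 165 and 183 CPM (log2 fold change 1.07, SE 0.23, adjusted p = 0.0170). S100a11 (1.05 ± 0.22, SE) and Anxa1 (0.83 ± 0.18, SE) were the others. Anxa3, at -0.53 (adjusted p = 0.0975), was the 1 tested member below 0. With DESeq2, 2 members were called higher. Anxa1 was called in 2 and S100a11 in 3 of the 6 fits that left out 1 library.

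Of 13 glycolysis genes tested, 4 rose and none fell, with a median of 0.69. Ldha, which makes lactate, had 153, 129 and 136 CPM in WT and 322, 298 and 351 CPM in the clone (log2 fold change 1.21, SE 0.18, adjusted p = 0.00184). Aldoa, the aldolase, had 80.1, 112 and 80.6 and 188, 245 and 196 CPM (log2 fold change 1.21, SE 0.22, adjusted p = 0.00647), and Pkm, pyruvate kinase, had 279.6, 181 and 237 and 408, 543 and 475 CPM (log2 fold change 1.04, SE 0.20, adjusted p = 0.00912). The groups were apart for all 3, with the lowest WT value in replicate 2 for Ldha and Pkm. Pgk1 was the other (log2 fold change 0.92, SE 0.22, adjusted p = 0.0343), and Pfkp was at -1.14 (adjusted p = 0.132). Pgk1 was called in 2 of the 6 fits that left out 1 library, and not with DESeq2.

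The list of oxidative stress response genes had 5 of 15 tested higher, none lower and a median of 0.51. These were Fth1, Ftl1, Mt2, Mt1 (log2 fold change 1.42, SE 0.30, adjusted p = 0.0187) and Gclm (log2 fold change 0.88, SE 0.22, adjusted p = 0.0395), that is, iron storage, metal-binding metallothioneins and a subunit of the enzyme that starts glutathione synthesis. Gclm had 42.6% of its counts in exons, and its fold change turned to -0.50 when positions marked mispriming were kept. Of 18 tested members of the list of lysosomal proteins, Ctsl and the cell surface tetraspanin gene Cd9, which that list also holds, rose. The median was 0.14.

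Epithelial and mesenchymal markers were both represented. Of 11 epithelial markers tested, the keratin gene Krt8 and the adhesion gene Epcam rose, with 104, 64.6 and 113 CPM in WT against 243, 245 and 233 CPM in Snord67KO-2 (log2 fold change 1.35, SE 0.23, adjusted p = 0.00368) for Krt8 and 37.3, 38.7 and 55.4 against 70.6, 96.6 and 103 CPM (log2 fold change 1.10, SE 0.28, adjusted p = 0.0422) for Epcam. Cdh1, E-cadherin, was at -0.09 (adjusted p = 0.884). Of 3 mesenchymal markers tested, Vim, the intermediate filament of mesenchymal cells, rose from 255, 286 and 214 to 597, 539 and 509.6 CPM (log2 fold change 1.11, SE 0.18, adjusted p = 0.00262), and the smooth muscle actin gene Acta2 was at -2.77 (adjusted p = 0.0533), with 70.8, 245 and 32.8 CPM in WT and 7.85, 8.05 and 28 CPM in the clone and 68.9% of its counts at 1 position. Acta2 was called lower with DESeq2 (adjusted p = 0.00503), with upper quartile factors (edgeR, adjusted p = 0.0283) and without WT replicate 2 (log2 fold change -1.66, adjusted p = 0.0276), among other alternatives, and its adjusted p was at most 0.283 in any of them. Epcam was called in 2 of the 6 fits without 1 library, and Vim in all 6.

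Of 27 actin cytoskeleton genes tested, 3 rose and none fell. Tmsb4x and Tmsb10, thymosins that hold actin monomers, were at 1.61 ± 0.22 and 1.10 ± 0.20 (SE), and Arpc1b, a subunit of the Arp2/3 complex, was at 1.08 ± 0.24 (SE). Of 10 immediate early genes tested, Ier3 and Junb rose and Myc fell. Junb, a part of AP-1, had 39.1, 47.4 and 37.8 CPM in WT and 126, 92.5 and 155 CPM in the clone (log2 fold change 1.59, SE 0.27, adjusted p = 0.00368). Myc, the growth transcription factor, had 177, 217 and 232 and 86.3, 129 and 99.4 CPM (log2 fold change -0.96, SE 0.22, adjusted p = 0.0275), with every library of the clone below every WT library. Pvt1, the noncoding neighbor of Myc on chromosome 15, had 98.8, 114 and 88.2 and 54.9, 32.2 and 43.5 CPM (log2 fold change -1.26, SE 0.28, adjusted p = 0.0220), and 24.1% of its counts were in exons.

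In other lists 1 or 2 members were called. They were the endoplasmic reticulum proteins Calr (1.09 ± 0.21, SE) and Pdia3 (0.87 ± 0.22, SE) of 18, the chaperone Hspa8 (0.75 ± 0.16, SE), counted among 19 heat shock genes and among 25 snoRNA hosts, the SR protein gene Srsf6 (0.98 ± 0.23, SE) of 37 splicing regulators, the complex III subunit Uqcrh (1.12 ± 0.21, SE, with 35.3% of counts in exons) of 24 oxidative phosphorylation genes, and cyclin B1, Ccnb1 (1.45 ± 0.37, SE), of 20 genes of mitosis and replication, all higher. Ajuba, a LIM protein that restrains Hippo signaling, fell among 15 YAP and TGF-beta responsive genes (log2 fold change -2.05, SE 0.43, adjusted p = 0.0173), and Plk2, a kinase raised by p53, fell among 5 p53-responsive genes (log2 fold change -1.64, SE 0.40, adjusted p = 0.0372). These calls stand in lists of 5 to 37 tested genes, and nothing is read from them about the lists.

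No member was called by edgeR in the lists of ribosomal proteins, translation factors, core spliceosome proteins, nucleolar and box C/D snoRNP proteins, nuclear long noncoding RNAs and cholesterol synthesis, and DESeq2 called none there either. At an unadjusted p under 0.05 they had 7 of 44, 9 of 27, 6 of 29, 3 of 17, 1 of 5 and 2 of 4 members. Snord67 guides a modification of U6, an RNA at the core of the spliceosome, and the 29 genes of spliceosome proteins ran from -1.60 to 0.58 with a median of -0.07. The 17 nucleolar genes had a median of -0.41, and 2 of them lay above 0. Without WT replicate 2, 2 spliceosome genes, 1 nucleolar gene, 1 ribosomal protein gene and 1 translation factor were called lower, and 1 translation factor and 1 long noncoding RNA higher. Upper quartile factors gave 1 translation factor and 1 spliceosome gene lower. Members with the highest mean CPM in their list were Eef1a1 (0.56, SE 0.19, adjusted p = 0.117), Sf3b1 (0.44, SE 0.19, adjusted p = 0.221), Npm1 (-0.06, SE 0.18, adjusted p = 0.897), Malat1 (0.14, SE 0.17, adjusted p = 0.704) and Sqle (-2.04, SE 0.72, adjusted p = 0.128). Sqle had 85.9% of its counts at 1 position and ranged from 60.5 to 665 CPM among the WT libraries. Mitochondria-encoded genes were not analysed here.

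**Figure D3:**
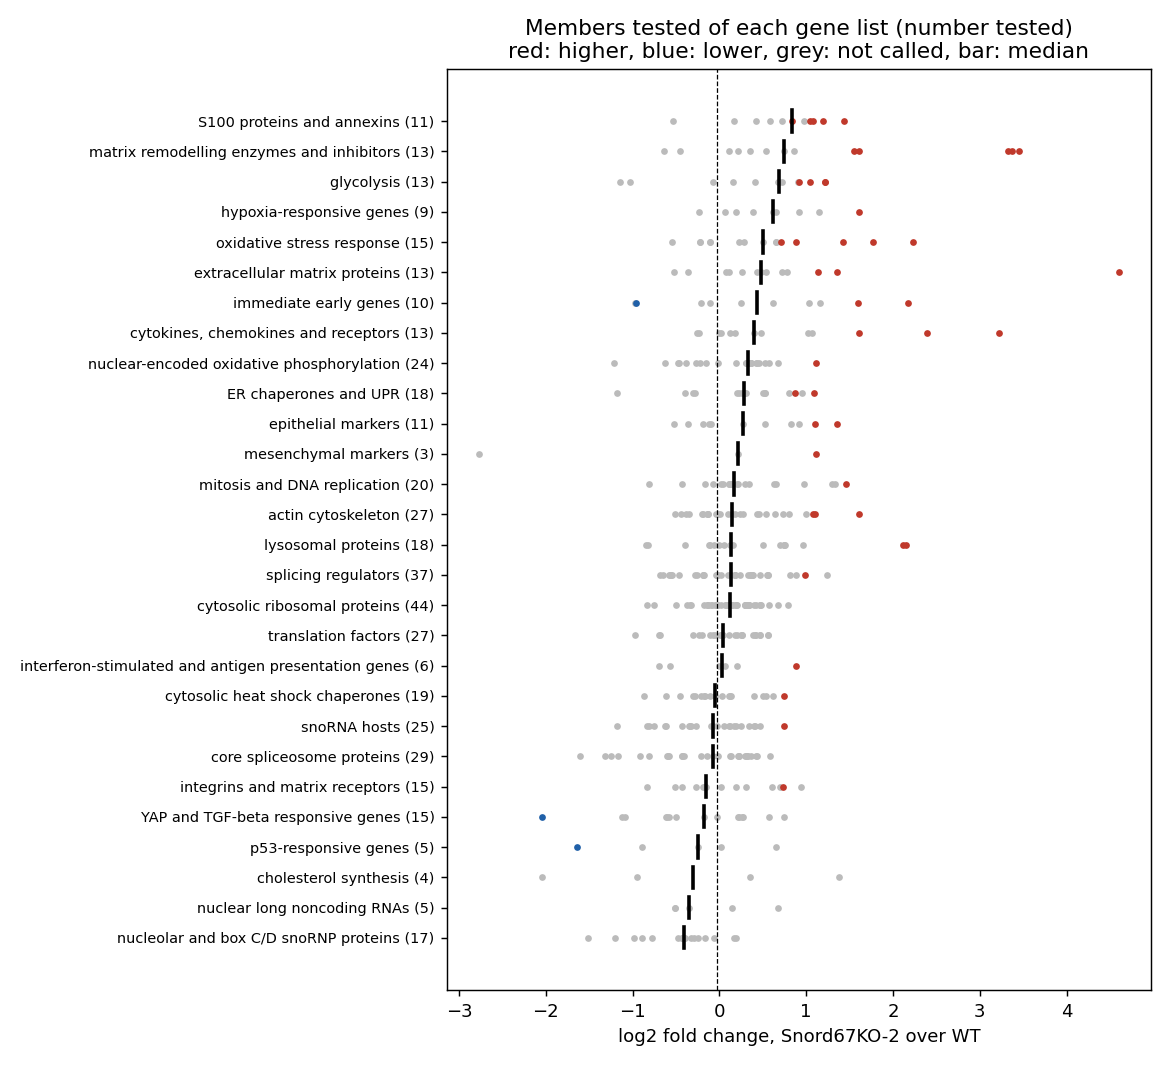
Log2 fold changes of the tested members of each list, with the number tested in parentheses, called members in red or blue, a bar at each median and a dashed line at the median of all genes, -0.03. The medians run from -0.41 for nucleolar proteins to 0.83 for S100 proteins and annexins, and most lists hold members on both sides of 0.

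The 36 genes called lower differed from the higher ones in how their counts lay. Of them, 18 (50%) had at least 20% of their counts at 1 position, against 1 of the 121 higher genes (0.826%) and 514 of all 4508 (11.4%). The median share at the highest position was 19.8% for lower, 2.52% for higher and 3.95% for all tested genes. WT replicate 2 was the highest WT library for 22 of the 36 lower genes, where it was so for 37.0% of all genes. The part of this in the lower calls was not tested. With genes of concentrated counts left out, an alternative chosen after the data were seen, 99 genes were called lower and 226 higher of 3994 tested. That fit drops the 18 lower genes above, so its calls are not those of the same genes.

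**Figure D4:**
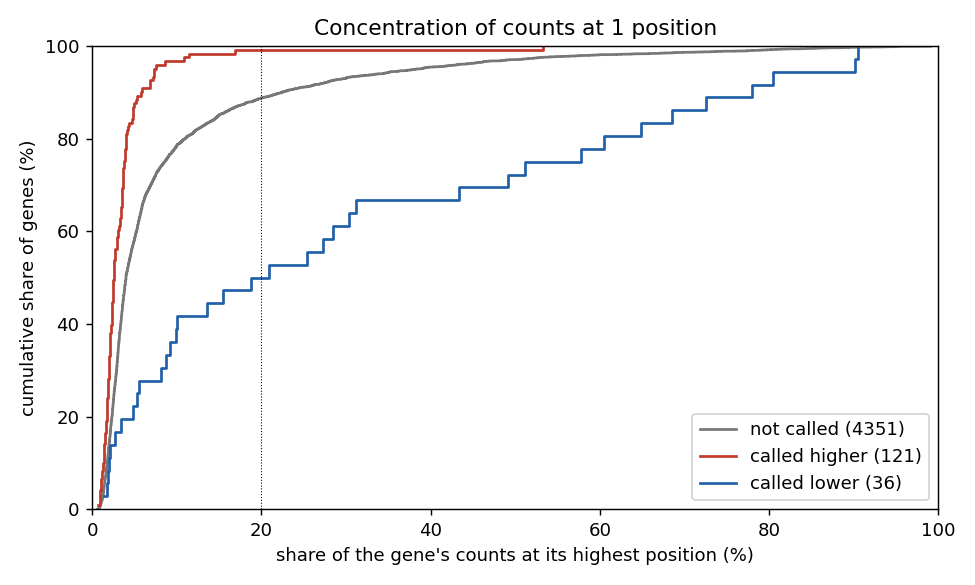
Cumulative share of genes by the share of their counts that lies at their highest position. The curve of the genes called lower stays below the others, and it reaches the dotted line at 20% with 50% of these genes below it.

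Among genes called lower with under 20% of their counts at 1 position was Rpl22l1, a paralog of the ribosomal protein Rpl22, with 112, 109.8 and 121 CPM in WT and 70.6, 40.2 and 43.5 CPM in Snord67KO-2 (log2 fold change -1.24, SE 0.26, adjusted p = 0.0173). Gtpbp4, a GTPase of large ribosomal subunit assembly, had 82, 108 and 73.1 and 47.1, 16.1 and 34.2 CPM (log2 fold change -1.52, SE 0.34, adjusted p = 0.0262). Prkci, the atypical protein kinase C iota, had 98.8, 139.9 and 83.2 and 31.4, 28.2 and 43.5 CPM (log2 fold change -1.59, SE 0.31, adjusted p = 0.0105), with 18.8% of its counts at 1 position. In all 3 every library of the clone was below every WT library. Gtf2a1, a subunit of the general factor TFIIA, had 35.4, 49.5 and 30.2 CPM in WT and 0, 8.05 and 6.21 CPM in the clone (log2 fold change -2.68, SE 0.56, adjusted p = 0.0163), with 15.5% of its counts at 1 position, and had under 50 counts, so no test, when the highest position was left out. Plk2 had 55.9, 49.5 and 60.5 and 23.5, 24.1 and 9.32 CPM, and Fam193b was at -2.04 (SE 0.49, adjusted p = 0.0342). Ajuba had 82, 123 and 47.9 and 31.4, 20.1 and 15.5 CPM, but 20.9% of its counts lay at 1 position.

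Phgdh, the first enzyme of serine synthesis, had 365, 637 and 265 CPM in WT and 102, 133 and 199 CPM in the clone (log2 fold change -1.49, SE 0.31, adjusted p = 0.0162). It had 64.9% of its counts at 1 position and 32.5% in exons, and was not called when the highest position of each gene was left out. Uchl3, a ubiquitin hydrolase (log2 fold change -2.0, SE 0.48, adjusted p = 0.0335), and Hhat, the acyltransferase of hedgehog proteins (log2 fold change -1.75, SE 0.43, adjusted p = 0.0395), had 78% and 25.4% at 1 position. Ddx19b and Nup88, 2 genes of mRNA export and the nuclear pore chosen after their values were seen, were called although the groups overlapped. Ddx19b had 427, 964 and 68 CPM in WT and 54.9, 28.2 and 80.8 CPM in the clone, with 80.5% of its counts at 1 position, and Nup88 had 332, 1253 and 126 and 39.2, 68.4 and 162 CPM, with 90.5%. Impg1 (-1.02, SE 0.20, adjusted p = 0.0124) and Fcrl5 (-0.88, SE 0.20, adjusted p = 0.0240), genes known from retina and B cells, had 0% of their counts in exons. Fcrl5 had 90.2% of its counts at 1 position, and the log2 fold change of Impg1 was 0.022 when distinct positions were counted in place of reads. Counted that way, Phgdh was at -0.46, Uchl3 at -0.92, Ddx19b at -0.16 and Nup88 at -0.05, and none of them was called.

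Mrpl35, of the mitochondrial ribosome, had 57 counts in the WT libraries and 3 in Snord67KO-2, a ratio of 0.105 with an exact 95% counting interval from 0.0211 to 0.324. Gm35612 had 67 and 3 counts, a ratio of 0.0896 (interval 0.018 to 0.273). The interval covers counting error over pooled libraries only. Mrpl35 had 43.3% and Gm35612 68.6% of their counts at 1 position, and neither reached 50 counts, so neither was tested, when the highest position was left out or distinct positions were counted. The short or unnamed loci Mir6240 (-1.55, SE 0.31, adjusted p = 0.0140), Mir6236 (-0.83, SE 0.18, adjusted p = 0.0181), 1500012F01Rik (-1.58, SE 0.30, adjusted p = 0.00794) and Gm23284 (-2.18, SE 0.57, adjusted p = 0.0499) were also lower. Gm23284 is annotated as an rRNA gene, which leaving out Rn45s did not remove, and had 0% of its counts in its exons. With distinct positions Mir6236 turned to 0.55, Mir6240 was at -0.11 and 1500012F01Rik at -0.64, and none of these 3 was called lower, while Gm23284 had too few to be tested. Of their counts, 1500012F01Rik had 51.2% and Gm23284 57.8% at 1 position. These names stand for the position the counts were given to, and mature miRNAs were not measured.

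Calls changed when 1 library was left out. Such a fit also has less power, and this was not told apart from the part of the library itself. Of the 121 higher genes, 30 were called in all 6 fits that left out 1 library, among them Spp1, Lcn2, Cp, Mmp3, Cxcl1, C3, Fth1, Ctsl, Fn1, S100a6, Ldha, Anxa2 and Vim. None of the 36 lower genes was: no gene was called lower without Snord67KO-2 replicate 2 or without replicate 3, where 593 and 691 genes had an unadjusted p under 0.05 by edgeR, and DESeq2 was not run on those libraries. Without WT replicate 2, 196 genes were called higher and 96 lower. Spp1, Lcn2, Cp, Mmp3, Cxcl1, Coro2a, C3, Fth1, Cd9, Ctsl, Oaf, Nt5e, Ptgs2, Fn1, Ltbp3, S100a6, Tmsb4x, Ier3, Tm4sf1, Ldha, Anxa2, Vim, Lmna, Maged1 and Dpy19l1 kept their call in all 21 alternative fits. The sizes were less stable for some of them. With positions marked mispriming kept, which gave 99 genes higher and 25 lower, the log2 fold change of Cxcl1 was 2.05, of C3 2.0, of Oaf 1.69, of Ier3 1.29 and of Ctsl 1.05, and Plet1 was at 1.36 and not called. With distinct positions Spp1 was at 3.92 and Csf3 at 3.31. Without 1 WT library, Mmp9 was at 4.06 (WT replicate 1) and Csf3 at 3.06 (WT replicate 2).

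Snord67KO-2 was compared with Snord67KO-1 in a fit of all 9 oxidized libraries, in which 98 of the 4508 genes (2.17%) were higher and 70 (1.55%) lower in Snord67KO-2. Both clones are set against the same WT libraries, so shared calls are not independent, and no overlap was tested. Of the 121 genes called higher in Snord67KO-2, 78 were also called higher in Snord67KO-1 in the fit of 9 libraries. Of the 36 called lower, 24 were also called lower there. A further 28 of the higher and 3 of the lower genes were not called there and differed between the clones. The share of all genes called in Snord67KO-1 is not given here. CPM in the following paragraphs are scaled over the 9 libraries. Spp1 had 127, 137 and 153 CPM in WT, 2132, 2269.5 and 2531 in Snord67KO-1 and 3584, 3384 and 3205 in Snord67KO-2 (log2 difference 0.55, SE 0.16, adjusted p = 0.0630). Mmp3 had 17.3, 15.2 and 20.8, 163, 176 and 215 and 208, 224 and 166 CPM (log2 difference 0.09, SE 0.20, adjusted p = 0.885). Fth1, Ctsl and Fn1 also had adjusted p of 0.540, 0.663 and 0.787 for the difference between the clones, with log2 differences of 0.20, 0.19 and -0.10 (SE 0.15, 0.20 and 0.15). A p above the threshold does not show that the clones were alike.

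Lcn2, Cxcl1, Mmp9, Ptgs2, Csf3 and C3 were among the named genes whose levels differed between the clones. Lcn2 had 61.9, 29.3 and 31.3 CPM in Snord67KO-1, on both sides of the 34.5, 36.8 and 33.7 CPM of WT, against 560.0, 456 and 425 in Snord67KO-2 (log2 difference 3.50, SE 0.25, adjusted p = 1.12e-07). Cxcl1 had 11.3, 0 and 14.7 CPM in Snord67KO-1 and 152, 199 and 188 in Snord67KO-2 (log2 difference 4.18, SE 0.38, adjusted p = 1.86e-06). Mmp9 had 7.51, 8.80 and 7.36 and 112, 99.5 and 61.7 CPM (log2 difference 3.43, SE 0.43, adjusted p = 1.07e-04). For these 3 genes every Snord67KO-2 library was several times above every library of the other clone. Ptgs2 was below WT in Snord67KO-1, at 56.3, 41.1 and 47.8 CPM against 92.1, 117 and 112, and at 352, 348 and 322 in Snord67KO-2 (log2 difference 2.78, SE 0.20, adjusted p = 1.12e-07). Csf3 had 35.7, 55.7 and 12.9 and 328, 394 and 474 CPM (log2 difference 3.62, SE 0.43, adjusted p = 5.21e-05), and C3 had 45, 35.2 and 46 and 192, 174 and 179 CPM (log2 difference 2.07, SE 0.23, adjusted p = 2.61e-05). Il1a had 0 counts in all 3 Snord67KO-1 libraries and 41 in Snord67KO-2, which is at least 8.58-fold higher against a limit of 3 counts per library.

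Some genes went further in Snord67KO-1. Vim had 1868, 2088 and 1961 CPM in Snord67KO-1 against 608, 556 and 533 in Snord67KO-2 and 263, 288 and 221 in WT (log2 difference -1.81, SE 0.16, adjusted p = 1.86e-06). Coro2a had 1464, 1507 and 1805 and 904, 892 and 857 CPM (log2 difference -0.85, SE 0.16, adjusted p = 0.00474), and S100a6 856, 1188 and 1085 and 560.0, 643 and 555 CPM (log2 difference -0.83, SE 0.18, adjusted p = 0.0120). All 3 lay in the order WT, Snord67KO-2, Snord67KO-1 with no overlap. Epcam was on opposite sides of WT, with 22.5, 14.7 and 25.8 CPM in Snord67KO-1, 38.4, 39 and 57.1 in WT and 72, 99.5 and 107 in Snord67KO-2 (log2 difference 2.14, SE 0.30, adjusted p = 3.83e-04). Myc had 37.5, 64.5 and 53.4 CPM in Snord67KO-1, below the 88, 133 and 104 of Snord67KO-2 (log2 difference 1.12, SE 0.26, adjusted p = 0.0178), while Pvt1 had 116, 76.2 and 80.9 CPM in Snord67KO-1 against 56, 33.2 and 45.5 in Snord67KO-2 (log2 difference -1.09, SE 0.28, adjusted p = 0.0372).

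**Figure D5:**
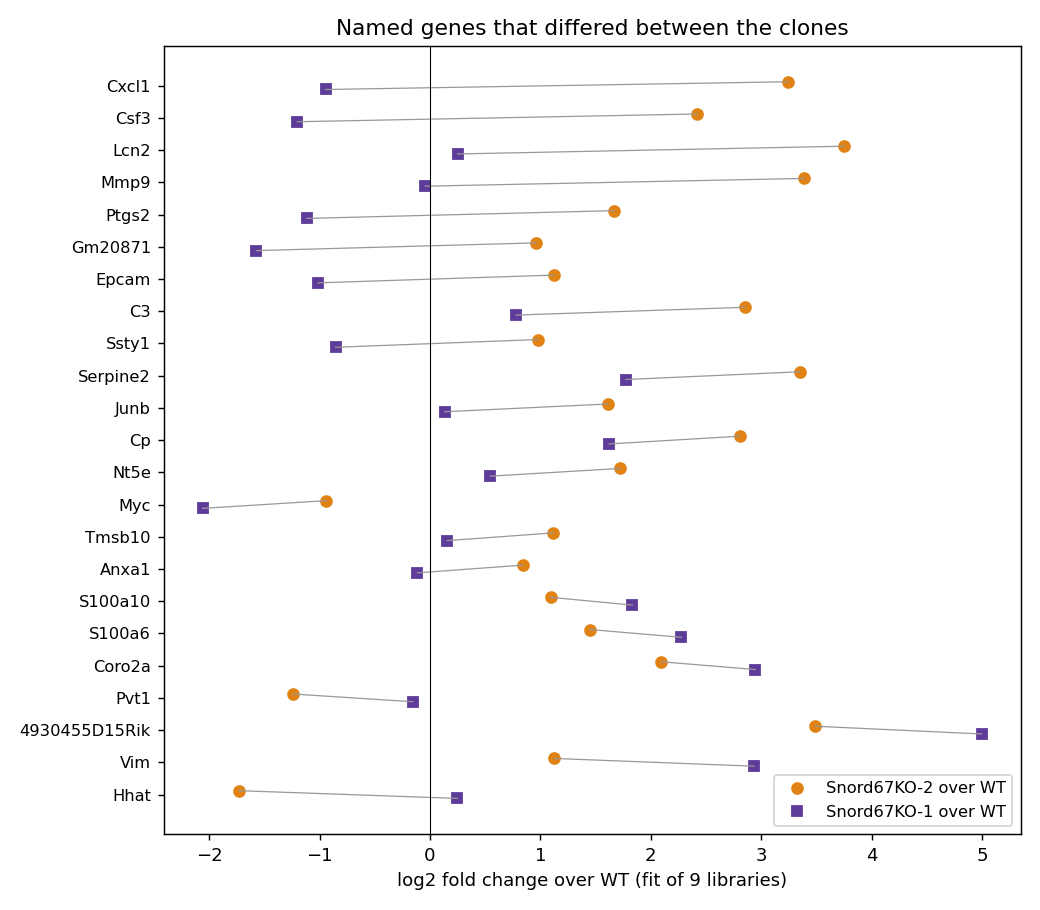
Log2 fold change over WT of each clone, from the fit of 9 libraries, for the named genes whose level differed between the clones at an adjusted p under 0.05. Il1a is left out because Snord67KO-1 had 0 counts. Cxcl1, Csf3, Lcn2 and Mmp9 lie furthest to the right for Snord67KO-2 (circles) relative to Snord67KO-1 (squares), and Vim and 4930455D15Rik lie further right for Snord67KO-1.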

How the data were processed

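RibOxi-seq counts of 6 oxidized libraries (WT and Snord67KO-2, 3 replicates each) were analysed, with 3 of Snord67KO-1 beside them. According to the methods and labels, the authors trimmed reads with cutadapt, merged pairs with pear, mapped them (STAR; mm10 in the labels, m39 in the methods) and counted read 3′ ends per position. The deposited counts are not normalized. Multimapping, duplicates and the mispriming mark are not defined in the sources used here. PCR copies are not marked, so intervals and limits cover counting error only.

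Counts at positions not marked mispriming and outside Rn45s were summed by chromosome and gene name. Genes with at least 50 counts over the 6 libraries were tested with edgeR 4.0.16 (R 4.3.3; TMM, quasi-likelihood test, Benjamini-Hochberg, adjusted p under 0.05). DESeq2 1.42.0 was an alternative, with 1835 adjusted p not given. CPM use TMM-scaled library sizes, except marker sums. Exons were taken from GENCODE M21 (GRCm38), which matched 4339 of 4508 genes. Of the positions with a matching name, 98.6% lay inside the gene, in exons or introns. Replicates differed by more than counting noise, and common dispersion gave a coefficient of variation of 0.197. Named genes were up to 12 per direction with the smallest p and no overlap, up to 6 more with the largest fold change, Snord67, Ckap5, and from each list up to 6 called members or its most abundant one. A few genes that this rule names are not reported here. The members and lists were chosen with earlier results of these data known. Alternatives covered normalization, count filters, positions counted, libraries left out, a replicate block and a fold threshold, and 2 were added after the data were seen.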

Additional observations from a re-analysis of the deposited data

Results flagged for a closer look

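Named genes whose level differed between the clones, by edgeR (quasi-likelihood, adjusted after Benjamini and Hochberg) for Snord67KO-2 minus Snord67KO-1 in the fit of 9 libraries, are given with the log2 difference. Groups of 3 were not searched for single deviating libraries. The difference was 4.18 for Cxcl1, 3.62 for Csf3, 3.50 for Lcn2, 3.43 for Mmp9, 2.78 for Ptgs2, 2.07 for C3 and 1.57 for Serpine2. For Il1a, with 0 counts in Snord67KO-1, the lower bound was 3.10. Cp was at 1.18 (154, 176 and 178 CPM in Snord67KO-1 against 416, 415 and 331 in Snord67KO-2), Nt5e at 1.18 and Junb at 1.48.

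The surface gene Epcam was at 2.14, the annexin gene Anxa1 at 0.96, the thymosin gene Tmsb10 at 0.96 and Myc at 1.12. On the other side, Hhat was at -1.98, Vim at -1.81, 4930455D15Rik at -1.51, Pvt1 at -1.09, Coro2a at -0.85, S100a6 at -0.83 and S100a10 at -0.74. The Y-named Gm20871 and Ssty1 were at 2.53 and 1.83. Every one of these had an adjusted p under 0.05 in that test, the largest being that of Pvt1 (log2 difference -1.09, SE 0.28, adjusted p = 0.0372). Single clones were compared, so a trait of either clone cannot be told apart from an effect of its guides.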

How the results depend on the processing

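Of the 121 genes called higher and 36 called lower, 98 and 30 also passed a log2 fold change of 1. DESeq2 called 54 higher and 11 lower, and library totals without scaling factors 63 and 4. Counting distinct positions gave 322 and 124, leaving out the highest position of each gene 250 and 111, and leaving out genes with concentrated counts (an alternative chosen after seeing the data) 226 and 99. Without a count filter 144 genes were higher and 212 lower. Without 1 library the counts ran from 40 to 196 higher and from 0 to 96 lower. The cause of these shifts was not tested. Of the named genes, 3 changed direction: Impg1 to 0.022 and Mir6236 to 0.55 with distinct positions, and Gclm to -0.50 with mispriming positions kept. With the replicate number as a block 98 genes were higher and 31 lower. Deviations of same-numbered libraries correlated at 0.02, -0.03 and -0.11, and not every library correlated best with its own number. With deviations from means of 3 libraries this check is weak, so it does not exclude a pairing by number. A limit is depth: Snord67KO-2 replicate 1 had 212463 counts, and genes near 50 counts in total show only large changes.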

Other observations

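Among the other 67 genes called higher (log2 fold changes from 0.75 to 2.13) and 14 called lower (-1.71 to -0.73), a few are given here, chosen after their values were seen. Alcam, an adhesion molecule of the immunoglobulin family, had 14.9, 19.4 and 17.6 CPM in WT and 54.9, 92.5 and 74.6 CPM in Snord67KO-2 (log2 fold change 2.13, SE 0.34, adjusted p = 0.00262). Ltbp3, which binds latent TGF-beta in the matrix, had 78.3, 103 and 60.5 and 283, 269.6 and 292 CPM (log2 fold change 1.79, SE 0.22, adjusted p = 2.20e-04), and the TGF-beta receptor gene Tgfbr1 had 28, 25.8 and 27.7 and 54.9, 52.3 and 80.8 CPM (log2 fold change 1.24, SE 0.32, adjusted p = 0.0464). Lmna, which encodes the A-type lamins of the nucleus, had 136, 94.7 and 106 and 314, 257 and 267 CPM (log2 fold change 1.30, SE 0.21, adjusted p = 0.00262). Ifi204, Ifi202b and Mndal, interferon-inducible genes of 1 family with near-identical stretches, were at 1.80 ± 0.30, 1.34 ± 0.25 and 1.40 ± 0.33 (SE), and how reads shared among them were counted is not given in the sources used here. Hbegf, a ligand of the EGF receptor, and Errfi1, an inhibitor of that receptor, were at 1.42 ± 0.33 and 1.18 ± 0.24 (SE). Cebpb, a transcription factor of the acute-phase response, was at 1.10 ± 0.26 (SE). Among the lower genes, Lats1, a Hippo pathway kinase, had 76.4, 116 and 111 CPM in WT and 47.1, 44.3 and 46.6 CPM in the clone (log2 fold change -1.13, SE 0.28, adjusted p = 0.0387), and Dld, a subunit of the pyruvate dehydrogenase complex, had 112, 129 and 131 and 39.2, 68.4 and 65.3 CPM (log2 fold change -1.03, SE 0.25, adjusted p = 0.0338).

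Of 6 tested genes named on chromosome Y, Gm20871 (0.95, SE 0.18, adjusted p = 0.00758) and Ssty1 (0.96, SE 0.18, adjusted p = 0.00800) were called higher, and Erdr1, Ddx3y, Gm20823 and Sly were not. At most 1.77% of the counts of any of them lay in annotated exons.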
